A study of Mus musculus with 10 samples.

Results

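The cytosolic heat shock chaperones were described here through 10 genes: the Hsp70 genes Hspa1a, Hspa1b and Hspa8, the Hsp110 gene Hsph1, the J protein genes Dnaja1 and Dnajb1, the small heat shock protein genes Hspb1 and Hspb8, the co-chaperone gene Bag3 and the transcription factor gene Hsf1. They were chosen by the gene symbol that the deposited intensity table gives each probe. All 10 genes had a probe, and with 2 probes for Hspa1b the set held 11 of the 23512 probes on the array. All 11 probes had a value on every array. All 11 lay above the lower quartile of intensity. The 2 Hspa1b probes are called brighter and dimmer after their mean reference intensities of 7.74 and 0.256 units.

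Pancreatic islets of db/db mice, homozygous for the diabetes (db) mutation in the leptin receptor and obese, were compared with islets of lean heterozygous db/+ mice, so every animal carried at least 1 mutant allele. Both groups were on the C57BLKS/J background and 9 weeks old, an age that the labels describe as one of severe hyperglycaemia with insulin that has fallen from earlier levels. Each group held 5 biological replicates, and each replicate was hybridised to a separate 2-colour array, with the islet RNA in Cy5 and a db/+ islet reference of the same age in Cy3. Values are log2 ratios of Cy5 over Cy3, so 0 means the level of the reference and -1 means 1/2 of it.

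Heat shock proteins hold unfolded proteins in solution and help them fold. Hsp70 proteins bind and release their clients in a cycle driven by ATP, which J proteins start by stimulating ATP hydrolysis and nucleotide exchange factors such as Hsp110 and BAG proteins reset. Small heat shock proteins bind unfolded clients without ATP. HSF1 is the main activator of these genes in stressed cells, while Hspa8, the constitutive Hsp70, is made in most cells without stress. Islets are also exposed to handling when they are isolated, which is known to induce stress genes.

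HSF1 binds inverted repeats of the unit GAA, so the promoters of the genes are shown first, where a match to this repeat can be seen beside the values that follow. RefSeq promoter windows of build GRCm38.p6, from 250 bases before to 50 bases after each annotated start, were found for 8 of the 10 genes (12 windows), and Hspa8 and Hsf1 had no entry. They were searched for GAANNTTC and TTCNNGAA, each of which reads the same on both strands, and the 2 can overlap in a longer repeat. Of 32851 windows of all genes, 15.1% held either motif and 0.603% held 3 units in a row. The Hspa1b and Hspa1a windows differed at 3 of the 250 bases before the start, so 1 of them is shown, with the motif in capitals, from chr17:34959239-34959488 on the minus strand.
Hspa1b: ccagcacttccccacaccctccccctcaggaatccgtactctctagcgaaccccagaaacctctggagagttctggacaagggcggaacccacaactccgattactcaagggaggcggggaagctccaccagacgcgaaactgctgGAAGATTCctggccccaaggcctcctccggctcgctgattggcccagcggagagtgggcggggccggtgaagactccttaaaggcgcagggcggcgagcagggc
Both Hspa1 genes held the same match, which began at position -104 from the start.

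Matches in the other windows are shown as short stretches, 5′ to 3′ on the strand of the gene, with the motif in capitals, to allow the genes to be compared.
Dnaja1, chr4:40722333-40722362, plus strand: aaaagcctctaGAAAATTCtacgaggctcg
Hspb1, chr5:135887791-135887820, plus strand: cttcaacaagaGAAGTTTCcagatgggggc
Hspb1, chr5:135887811-135887840, plus strand: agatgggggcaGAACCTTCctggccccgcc
Hsph1, chr5:149636351-149636380, minus strand: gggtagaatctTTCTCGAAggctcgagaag
Hsph1, chr5:149636277-149636306, minus strand: tgcagaTTCTGGAAAGTTCtcctcagtagg
Hspb8, chr5:116422844-116422873, minus strand: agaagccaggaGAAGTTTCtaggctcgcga
Bag3, chr7:128523614-128523632, plus strand: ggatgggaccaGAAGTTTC
The second Hsph1 stretch held 3 units in a row. The Dnajb1 windows held no match, which says only that these letters are not in those windows. In Dnaja1 the match lay in 1 of its 3 windows.

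Islets of db/db mice had less RNA of 9 of the 10 genes than islets of db/+ mice. Of the 11 probes 10 fell and 0 rose (also 0 at an unadjusted p under 0.05). Their log2 differences had a median of -0.82, against -0.02 over all 23138 probes tested. Dnaja1 fell most (3.04-fold), followed by the brighter Hspa1b probe, Hspa8 and Dnajb1 at 2.39-fold, 2.37-fold and 2.35-fold, whose intervals overlapped widely. Bag3 was the gene that did not pass the test. After quantile normalization of the ratios, which gives all arrays the same distribution, 6 of the 11 probes were called lower. The Hspa1a and Hspa1b probes may bind RNA of either gene, so their falls may not be separate. Among all probes tested, limma called 17.1% lower and 15.9% higher in db/db. Of the 5177 probes with 10 values and a mean reference intensity of 1 unit or more, where 8 of the 11 chaperone probes lay, 31.3% were called lower. At least 2-fold lower and called were 5 of the 11 probes, against 1.48% of all probes. All 5 db/db arrays lay below all 5 db/+ arrays for 9 of the 11 probes, against 12.4% of the 21954 probes with 10 values. In bulk islet RNA, fewer cells of a type and less RNA per cell cannot be told apart.

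**Figure D1:**
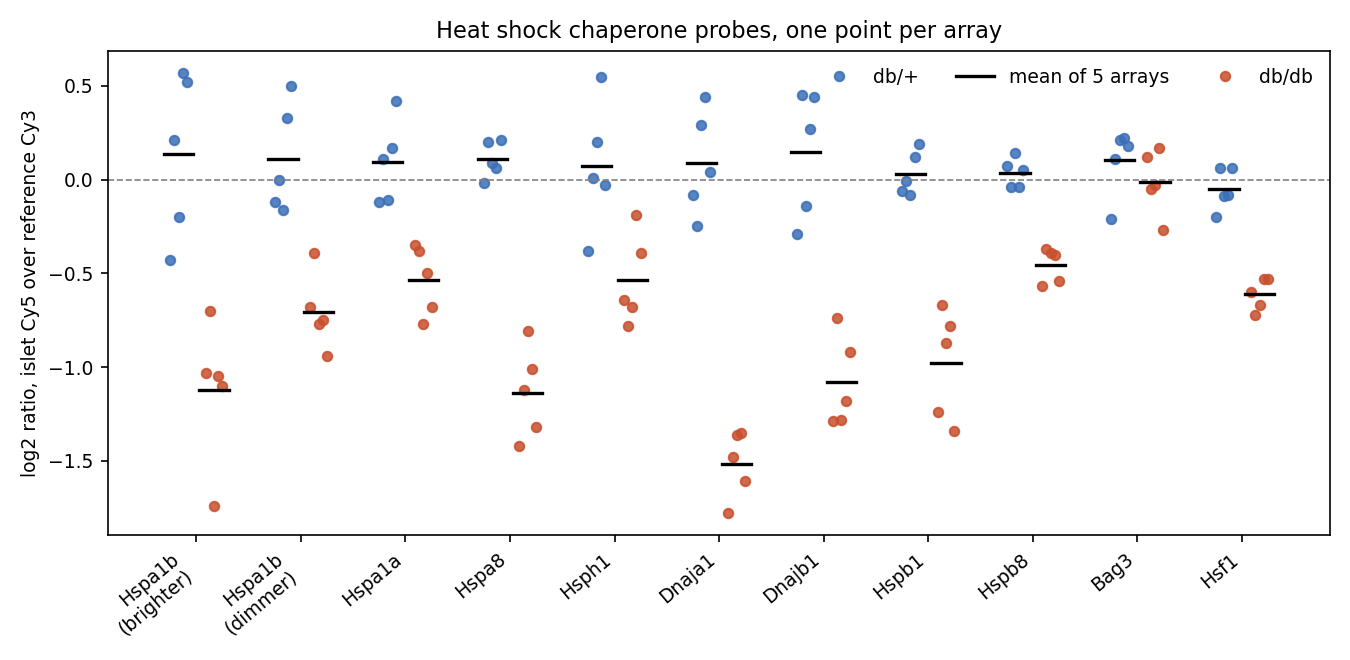
Each point is the log2 ratio of islet Cy5 over reference Cy3 on 1 array, for the 5 db/+ and 5 db/db arrays and each chaperone probe, and the short bars are the means of 5 arrays. The groups are apart for 9 of the 11 probes and overlap for Hsph1 and Bag3.

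Hspa1b and Hspa1a encode the stress-inducible Hsp70, and their coding sequences are nearly identical, so RNA of 1 gene may bind probes of the other and the genes are reported as uncertain against each other. The brighter Hspa1b probe gave log2 ratios of -0.43, 0.21, -0.20, 0.57 and 0.52 on db/+ arrays 1 to 5 and of -1.03, -0.70, -1.74, -1.05 and -1.10 on db/db arrays 1 to 5. Db/db array 3 was the lowest of all, and the groups did not overlap. Cy5 intensity was 8.70 ± 2.34 units in db/+ and 3.69 ± 0.958 in db/db (SD, n = 5), while the reference read 7.69 and 7.79 units on the arrays of the 2 groups. This was a fall of 2.39-fold (log2 difference -1.26 ± 0.24 SE, 95% interval 1.64-fold to 3.48-fold, adjusted p = 0.00322).

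The dimmer Hspa1b probe gave -0.12, 0.00, -0.16, 0.33 and 0.50 in db/+ and -0.68, -0.39, -0.77, -0.75 and -0.94 in db/db. It fell 1.76-fold (-0.82 ± 0.15 SE, adjusted p = 0.00228), again with no overlap. The Hspa1a probe gave -0.12, 0.11, -0.11, 0.17 and 0.42 in db/+ and -0.35, -0.38, -0.77, -0.50 and -0.68 in db/db, a fall of 1.55-fold (-0.63 ± 0.12 SE, adjusted p = 0.0032). Intensities of these probes are low and rounded to 0.01 units, so 1 rounding step at their mean db/db Cy5 intensity moves the log2 ratio by 0.0885 for the dimmer Hspa1b probe and by 0.13 for Hspa1a. On all 3 Hspa1 probes db/+ arrays 4 and 5 were the 2 highest. After quantile normalization of the ratios between arrays, which gives all arrays the same distribution, the 3 probes no longer passed (adjusted p = 0.0548, 0.0752 and 0.0818, log2 differences -1.08, -0.68 and -0.54).

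Hspa8 encodes the constitutive Hsp70, which also uncoats clathrin vesicles. Its log2 ratios lay close together in db/+, at -0.02, 0.20, 0.09, 0.06 and 0.21, and were -1.42, -1.12, -0.81, -1.01 and -1.32 in db/db. The groups were 0.78 apart at their nearest arrays on the log2 scale. Hspa8 fell 2.37-fold (log2 difference -1.24 ± 0.11 SE, 95% interval 1.99-fold to 2.82-fold, adjusted p = 3.79e-05), from 5.49 ± 0.772 to 2.43 ± 0.405 units of Cy5 (SD, n = 5).

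Hsph1, an Hsp110 that resets the Hsp70 cycle by nucleotide exchange, gave -0.38, 0.01, 0.20, 0.55 and -0.03 in db/+ and -0.64, -0.78, -0.68, -0.19 and -0.39 in db/db. Db/+ array 1 lay at the level of the higher db/db arrays, so the groups overlapped. The fall of 1.52-fold passed the threshold (-0.60 ± 0.18 SE, adjusted p = 0.0251). It no longer passed after quantile normalization (adjusted p = 0.189), in Cy5 intensity without the reference (0.0736), and without db/+ replicate 3 (0.0598), db/db replicate 1 (0.0558), 2 (0.0585) or 3 (0.0562), where the alternatives together spanned 0.00878 to 0.189.

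The J proteins Dnaja1 and Dnajb1 deliver clients to Hsp70 and stimulate its ATPase. Dnaja1 gave -0.08, -0.25, 0.29, 0.44 and 0.04 in db/+ and -1.78, -1.48, -1.36, -1.35 and -1.61 in db/db. All db/db arrays lay below all db/+ arrays, with the widest gap among the 11 probes. The fall was 3.04-fold (log2 difference -1.60 ± 0.14 SE, 95% interval 2.44-fold to 3.78-fold, adjusted p = 3.19e-05), from 1.05 ± 0.149 to 0.342 ± 0.0536 units of Cy5 (SD, n = 5).

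Dnajb1, an inducible J protein also known as Hsp40, gave -0.29, 0.45, -0.14, 0.27 and 0.44 in db/+ and -1.29, -0.74, -1.28, -1.18 and -0.92 in db/db. The groups did not overlap, and in db/+ arrays 1 and 3 were the low ones, as for the brighter Hspa1b probe. Dnajb1 fell 2.35-fold (-1.23 ± 0.18 SE, 95% interval 1.78-fold to 3.08-fold, adjusted p = 0.00057).

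Hspb1 and Hspb8 are small heat shock proteins. Hspb1, known in the mouse as Hsp25 and also tied to the actin cytoskeleton, gave -0.06, -0.01, -0.08, 0.12 and 0.19 in db/+ and -1.24, -0.67, -0.87, -0.78 and -1.34 in db/db. Its db/db arrays were spread more widely than its db/+ arrays, and all lay below them. The fall was 2.02-fold (-1.01 ± 0.13 SE, adjusted p = 0.000348).

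Hspb8 forms a complex with Bag3 that sends aggregated proteins to autophagy. Its log2 ratios were 0.07, -0.04, 0.14, -0.04 and 0.05 in db/+ and -0.57, -0.37, -0.39, -0.40 and -0.54 in db/db. Both groups were tight, with ranges of 0.18 in db/+ and 0.20 in db/db, and did not overlap. The fall was 1.41-fold (-0.49 ± 0.06 SE, 95% interval 1.29-fold to 1.53-fold, adjusted p = 0.000139).

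Bag3, the partner of Hspb8 and a nucleotide exchange factor of Hsp70, gave -0.21, 0.11, 0.21, 0.22 and 0.18 in db/+ and 0.12, -0.05, -0.03, 0.17 and -0.27 in db/db. The groups overlapped, and Cy5 intensity was 5.87 ± 0.899 units in db/+ and 5.73 ± 0.505 in db/db (SD, n = 5). The log2 difference was -0.11 ± 0.11 SE, with a 95% interval of -0.35 to 0.12 (adjusted p = 0.46, and 0.138 to 0.876 in the alternatives). The interval allows a fall of up to 1.27-fold and does not show that the level was alike. Its lower end lay above the measured difference of each of the other 10 probes, a comparison of values without a test of the difference between probes.

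Hsf1, the transcription factor of the heat shock response, gave -0.20, 0.06, -0.09, -0.08 and 0.06 in db/+ and -0.60, -0.72, -0.67, -0.53 and -0.53 in db/db. All db/db arrays lay below all db/+ arrays. Hsf1 RNA fell 1.47-fold (-0.56 ± 0.06 SE, 95% interval 1.34-fold to 1.62-fold, adjusted p = 0.000126). HSF1 is known to be controlled largely at the protein level, which was not measured.

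Set beside the promoters above, 6 of the 7 genes with a motif match were called lower: Hspa1a, Hspa1b, Hsph1, Dnaja1, Hspb1 and Hspb8. Bag3 also has a match and did not pass the test. Dnajb1, the 1 gene whose windows hold no match, was called lower as well. Of the 10 genes 9 were called lower, against 17.9% of all genes, so these counts do not set genes with a match apart. The share called lower among all genes with a match was not computed.

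**Figure D2:**
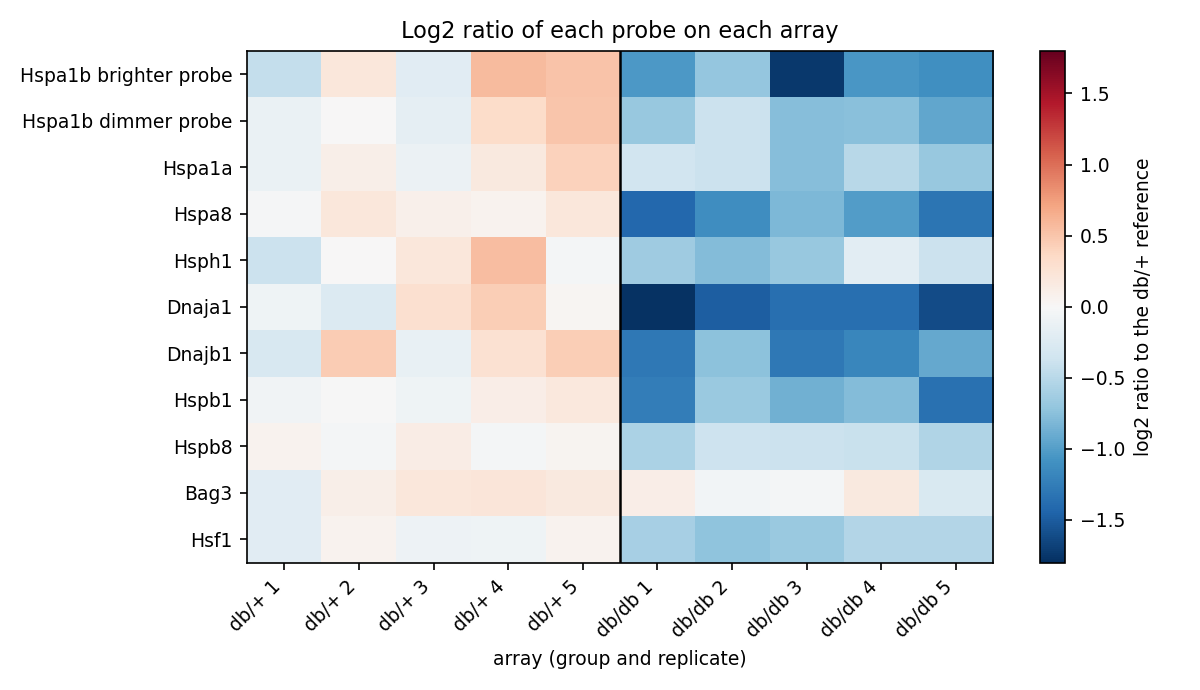
Rows are the 11 chaperone probes and columns the 10 arrays, and the colour is the log2 ratio to the db/+ reference from -1.8 (blue) to 1.8 (red). The db/db columns are blue for every row but Bag3, and within db/+ arrays 4 and 5 are the reddest for the Hspa1 probes.

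The authors' deposited table gives a p-value for each probe and array that compares both channels. In the authors' deposited table, 6 of the 11 probes had p under 0.01 on all 5 db/db arrays, which were the brighter Hspa1b probe, Hspa8, Dnaja1, Dnajb1, Hspb1 and Hsf1. By that rule, with the ratio below the reference, 3.39% of 22505 probes were called. On db/+ arrays the authors' deposited table had p under 0.01 for 3 of the probes: the brighter Hspa1b probe on arrays 4 and 5, and Hsph1 and Dnaja1 on array 4. Bag3 had p of 0.45 or more on every db/db array in the same table.

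For the chaperone probes the reference channel gave no call between the groups. For single channels, log2 intensities were quantile normalized between arrays, which removes any difference in overall level between arrays. In Cy3 alone the log2 differences between the groups were then at most 0.073 in size over the 11 probes. The lowest adjusted p among them was 0.888. Over all probes tested 5 were called in Cy3, and 1113 had an unadjusted p under 0.05. In Cy5 without the reference 9 of the 11 probes were called lower, with Hsph1 the one lost.

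The spread among db/+ arrays differed between the genes. The standard deviation of the log2 ratio over the 5 db/+ arrays was 0.44 for the brighter Hspa1b probe, 0.342 for Dnajb1, 0.342 for Hsph1, 0.291 for the dimmer Hspa1b probe and 0.278 for Dnaja1. It was 0.117 for Hspb1, 0.111 for Hsf1, 0.0982 for Hspa8 and 0.0765 for Hspb8, with Hspa1a at 0.22 and Bag3 at 0.176. The first set thus varied more than the typical probe and the second about as much or less, since the median was 0.133 over the 21954 probes with 10 values. Among the 5177 brighter probes the median was 0.126, and the brighter Hspa1b probe lay at percentile 98.5, Dnajb1 and Hsph1 at 96.1 and Hspa8 at 32.9. From the lowest to the highest db/+ array, the ratio of the brighter Hspa1b probe ranged 2.01-fold and that of Hspb8 1.13-fold.

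**Figure D3:**
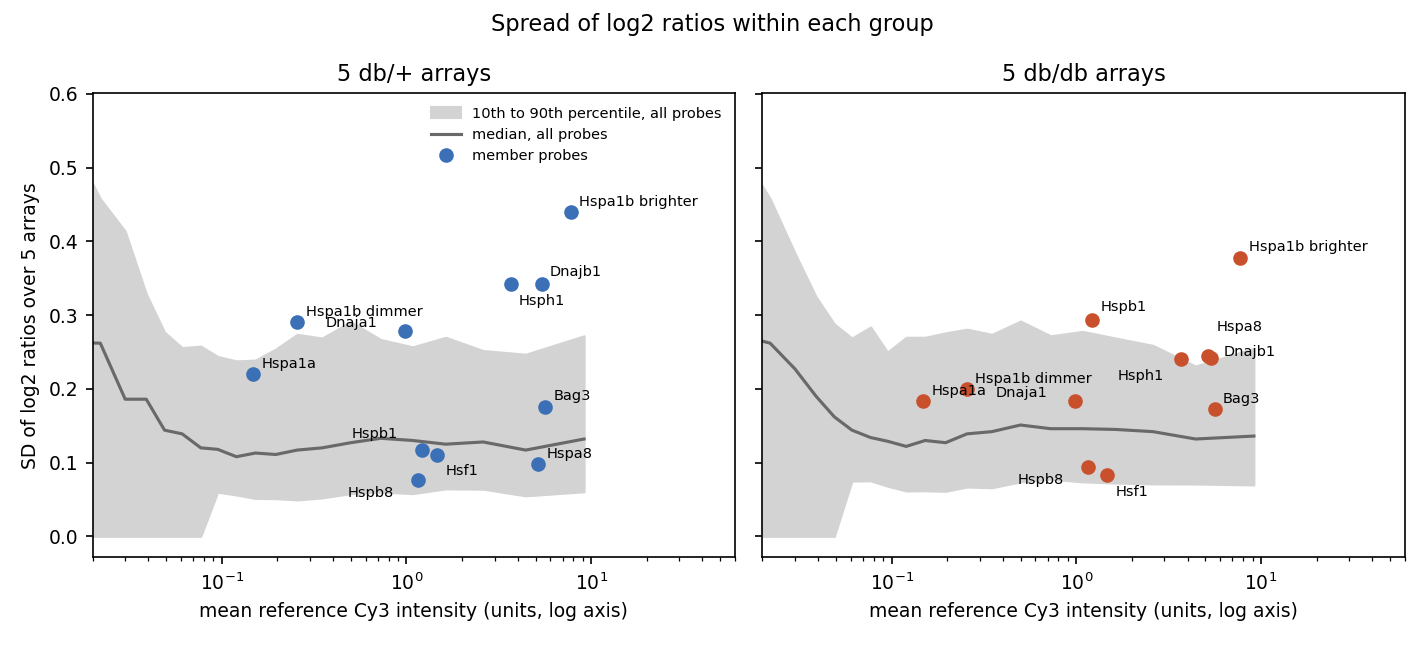
The standard deviation of the log2 ratios over the 5 db/+ arrays (left) and the 5 db/db arrays (right) is plotted against the mean reference intensity on a log axis, with the median and the 10 to 90 percentile band of all probes in 20 bins of intensity. In db/+ the brighter Hspa1b probe (0.44), Dnajb1 and Hsph1 (0.342 each) lie above the band and Hspa8 (0.0982) lies near the median line.

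Within db/+, array 1 was the lowest for 7 of the 11 probes and the highest for 0, and arrays 4 and 5 were the highest for 4 and 5 probes. The median log2 ratio of the 11 probes was -0.12 on db/+ array 1, 0.06 on array 2, -0.09 on array 3, 0.22 on array 4 and 0.19 on array 5, where the median of all probes was 0. On db/db arrays it ran from -0.92 on array 5 to -0.68 on array 1. Within db/db the brighter Hspa1b probe again had the largest spread of the 11 (0.378), and Hsf1 (0.0831) and Hspb8 (0.0937) the smallest. Between groups Hspa8, Hspb1 and Hspb8 went the other way from Hspa1b, with a larger spread in db/db (0.244, 0.294 and 0.0937) than in db/+. For Hspb8 the 2 spreads were close (0.0765 in db/+), and differences in spread were not tested. The reference was itself db/+ islet RNA, and whether it was made from the same mice is not given.

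The gene most like the brighter Hspa1b probe, which had the largest range over the 10 arrays (2.31 on the log2 scale), was Dnajb1. Likeness was measured as the root mean square difference of the log2 ratios over the 10 arrays, which was 0.225 for Dnajb1, smaller than for every other probe with 10 values. The next 5 genes were Zbtb21 (0.277), Vps13a (0.279), the uridine-cytidine kinase gene Uck2 (0.279), N4bp2l2 (0.29) and Erc2, of the presynaptic active zone (0.294). All 5 were called lower in db/db, with log2 differences of -1.41 to -1.06. The measure is dominated by the difference between the groups. By the same measure the dimmer Hspa1b probe lay at 0.383, with 107 probes closer, and Hspa1a at 0.477, with 494 closer.

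Other genes of the chaperone machinery fell more often than they rose. Of 77 tested genes in 7 lists, 30 fell and 7 rose, while among all 19567 genes 17.9% fell and 16.9% rose. Bright probes fell more often: of the 5177 with a mean reference intensity of 1 unit or more, 31.3% were called lower. Many genes of the lists were that bright, and how far their count of falls follows intensity was not tested. The median log2 difference was -0.20 in the lists and -0.02 over all genes. Each gene is represented by its brightest probe. The count of rises was smaller without some arrays: it was 3 without db/+ replicate 4 or 5, and 4 without db/+ replicate 2 or db/db replicate 2. Fewer samples were then left, and the cause was not tested. Cct2, with 3 db/+ values, could not be tested without db/+ replicate 4 or 5. After quantile normalization 17 fell and 3 rose.

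In the HSP90 machine 6 of 13 genes fell and 0 rose (median -0.29), with 8 lower and 0 higher at an unadjusted p under 0.05. Cacybp, a protein that binds Hsp90 and calcyclin, fell (-0.58 ± 0.06 SE, adjusted p = 7.23e-05), and Stip1, the adaptor between Hsp70 and Hsp90, 1.32-fold. The constitutive Hsp90ab1 fell 1.22-fold, and Unc45a, a chaperone of myosin, 1.45-fold. The calls of Hsp90ab1 and Unc45a were lost after quantile normalization (adjusted p = 0.109 and 0.128) and that of Stip1 in Cy5 without the reference (0.0852). The inducible Hsp90aa1, chosen after its values were seen, had 3 db/+ and 4 db/db values and a log2 difference of -0.32 ± 0.09 SE (adjusted p = 0.0296).

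Among other Hsp70 proteins and their cofactors 10 of 16 genes fell and 2 rose (median -0.32). Hspa12a, a distant relative of Hsp70, fell 3.20-fold (-1.68 ± 0.07 SE, adjusted p = 8.98e-07). Bag2, a BAG protein that inhibits the ubiquitin ligase Stub1, fell 2.50-fold, with db/+ ratios of -0.42 to 0.24 and db/db ratios of -1.56 to -0.83. St13, an Hsp70 cofactor that slows nucleotide release, fell 1.62-fold, and the ribosome-associated Hspa14 fell by 0.58 on the log2 scale. The genes that rose, named after their values were seen, were Stub1, the ubiquitin ligase of the Hsp70 system (0.46 ± 0.09 SE, adjusted p = 0.00424), and Hspa13, a microsomal Hsp70 (0.29 ± 0.10 SE, adjusted p = 0.0446). Stub1 was not called in Cy5 without the reference (0.0832). Hspa13 was not called there (0.282), after quantile normalization (0.672), with array weights (0.0756), or without db/+ replicate 2 (0.0518), 4 (0.0993) or 5 (0.0685) or db/db replicate 1 (0.0907), 2 (0.0883), 4 (0.0864) or 5 (0.071). Of 11 other J protein genes 6 fell and 1 rose (median -0.32). Dnajb5 fell 2.45-fold (-1.29 ± 0.09 SE, adjusted p = 1.09e-05), Dnajb2 2.02-fold, Dnajb4 1.44-fold and Dnaja2 1.22-fold, the last lost after quantile normalization (adjusted p = 0.0817). Dnajc7, a J protein that links Hsp70 and Hsp90 and was named after its values were seen, rose 2.59-fold (1.37 ± 0.40 SE, adjusted p = 0.0244). Its db/+ ratios ran from -0.74 to 1.45 and overlapped the db/db ratios of 0.93 to 1.85. The call was lost after quantile normalization (0.302) and without db/+ replicate 2 (0.0538), 4 (0.0606) or 5 (0.0597) or db/db replicate 2 (0.0532), 3 (0.0568) or 4 (0.051).

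In the list of other small heat shock proteins 1 of 8 genes was lower and 2 were higher, Hspb11 and Cryab (median -0.08). Hspb6 fell 1.61-fold on its brighter probe, and its second probe was not called. Hspb11, which in spite of its name is a subunit of intraflagellar transport, rose 1.54-fold (0.62 ± 0.07 SE, adjusted p = 0.000109). Cryab, alpha B-crystallin, rose 1.52-fold (0.60 ± 0.19 SE, adjusted p = 0.0338), with overlapping groups. Its call was lost after quantile normalization (0.255) and without db/+ replicate 2 (0.0673), 3 (0.0785), 4 (0.0799) or 5 (0.0669) or db/db replicate 1 (0.0772), 2 (0.0684) or 5 (0.058). Hspb2 gave -0.20 ± 0.08 SE (adjusted p = 0.0683), and passed without db/db replicate 2 (0.0434) or 4 (0.0443).

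Of 13 genes of the TRiC chaperonin, which folds actin and tubulin, and of prefoldin, which delivers clients to it, 5 fell and 1 rose (median -0.20). The prefoldin genes Pfdn4 and Pfdn2 fell 1.37-fold and 1.29-fold and the TRiC subunit Cct5 1.27-fold. Cct6a (-0.40 ± 0.10 SE) and Cct7 (-0.45 ± 0.14 SE), also TRiC subunits and named after their values were seen, made up the count. Cct2, with 3 db/+ and 4 db/db values, rose 1.35-fold (0.43 ± 0.08 SE, adjusted p = 0.00557), but gave 0.12 in Cy5 without the reference (adjusted p = 0.582) and was not called after quantile normalization (0.112). The calls of Pfdn4 (0.0576) and Cct5 (0.0754) were lost after quantile normalization.

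Mitochondrial chaperones showed 0 falls and 1 rise of 8 genes (median -0.04), with 2 lower and 1 higher at an unadjusted p under 0.05. Clpb, a mitochondrial disaggregase, rose 1.21-fold (0.28 ± 0.07 SE, adjusted p = 0.0092) on 1 of its 2 probes, and was not called after quantile normalization (0.112) or in Cy5 without the reference (0.0602). The protease gene Lonp1 gave -0.36 ± 0.13 SE (adjusted p = 0.0678). It passed with loess within arrays (0.0317), in Cy5 without the reference (0.0387), without dim probes (0.041) and without db/+ replicate 1 (0.0309), so the count of 0 falls depends on these settings. The mitochondrial Hsp70 gene Hspa9 gave -0.32 ± 0.13 SE (0.0884, and 0.0472 without db/db replicate 4) and Hspe1, the co-chaperonin, -0.27 ± 0.13 SE (0.149). Of 8 genes of other heat shock factors and regulators 2 fell and 0 rose (median 0.01), with 2 lower and 1 higher at an unadjusted p under 0.05. Dedd2 fell by 0.59 on the log2 scale and Hdac6, a cytoplasmic deacetylase that acts on Hsp90, fell 1.41-fold, the latter not called after quantile normalization (adjusted p = 0.145). Hsf2, a second heat shock factor, gave 0.21 ± 0.09 SE (adjusted p = 0.113) and Hsbp1, which binds HSF1, 0.10 ± 0.06 SE (0.205). Hsbp1 passed after quantile normalization (0.014) and had the opposite sign in Cy5 without the reference.

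**Figure D4:**
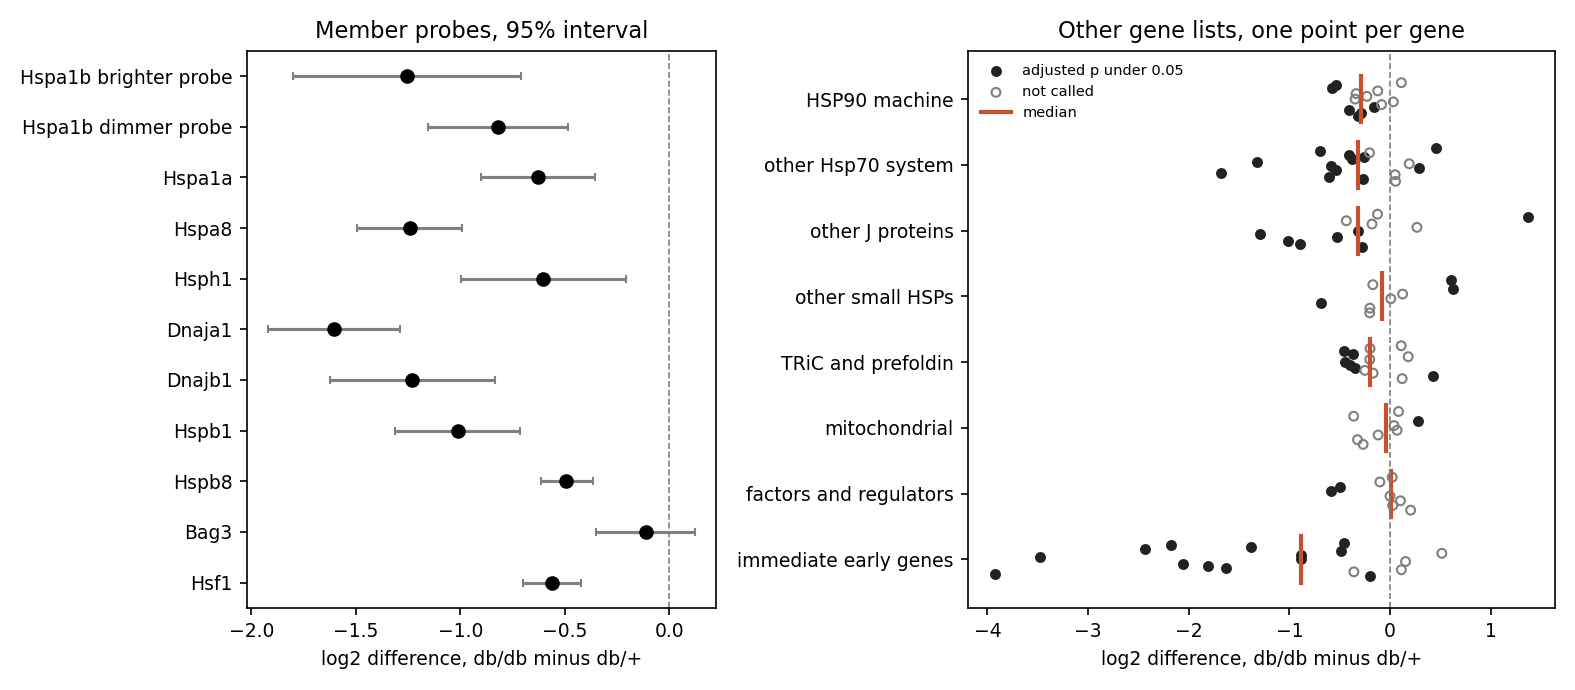
Left, the log2 difference of db/db minus db/+ for each chaperone probe with its 95% interval. Right, the same difference for the genes of the other lists, filled where the adjusted p was under 0.05 and open where not, with the median of each list as a bar. The intervals of 10 probes lie below 0 and that of Bag3 spans 0, and the medians of the lists run from -0.88 for immediate early genes to 0.01 for heat shock factors and regulators.

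Immediate early genes, which cells switch on within minutes of stimulation or handling, also fell: 13 of 17 tested genes were lower and 0 higher (median -0.88), the same counts as at an unadjusted p under 0.05. The transcription factor gene Nr4a1 fell 4.51-fold (-2.17 ± 0.28 SE, adjusted p = 0.000294), and Fosb, Atf3 and Egr4 were the other 3 of smallest adjusted p. Within db/+ the arrays did not stand in the same order for both lists. The median log2 ratio of the immediate early genes was highest on array 2 (0.77) and lowest on array 4 (-0.21), and that of the chaperone probes was highest on array 4 (0.22). Within db/db, both medians were lowest on array 5 (-1.11 and -0.92). Both were higher on arrays 1 and 2 than on arrays 3, 4 and 5. The part of the immediate early response in the chaperone result was not tested.

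Across the whole series, each array held 22657 to 23365 values, and the standard deviation of the log2 ratios ran from 0.194 to 0.309 on db/+ arrays and from 0.477 to 0.537 on db/db arrays. The Lepr probe was dim, at 0.0117 units of reference on average where the lower quartile of the probes is 0.049, and gave -0.41 ± 0.37 SE (adjusted p = 0.454), and its place in the gene is not known, so it does not check the genotypes. Of the beta cell markers, Ins1, Mafa and Ucn3 were listed below that quartile, and Iapp, Slc2a2 and Slc30a8 had too few values to test. No probe was found under the names Ins2 and G6pc2. Markers of other cell types moved with the groups. All 6 fibroblast and stellate cell markers rose, and their summed Cy5 intensity was 0.80 to 1.70 units in db/+ and 2.96 to 6.03 in db/db. Such sums are weighted to the brightest genes of a list. Summed duct markers (2 of 6 higher, 0 lower) ran from 16.2 to 22.7 units in db/+ and up to 29.7 in db/db, with no overlap. Endothelial markers (1 of 6 higher, 1 lower) ran from 6.19 to 9.29 and from 9.41 to 13.8. The brightest of these, Plvap (5.30 units of reference), was the one that rose, while the median log2 difference of the list was -0.08. Beta cell markers (3 of 5 tested lower, 0 higher) ran from 2.75 to 3.56 units and from 2.25 to 2.45. The brightest of them were Nkx6-1 and Pdx1 (2.15 and 1.24 units of reference), and the other tested ones were dim. The calls were Pdx1, Mafa and Ucn3, while Nkx6-1 did not pass (adjusted p = 0.0513). Mafa and Ucn3, at 0.045 and 0.037 units of reference, had db/+ log2 ratios of 0 on every array. Intensities are rounded to 0.01 units, so the spread of these dim probes is poorly measured. The ranges overlapped for macrophage markers (4 of 7 higher, 0 lower, 10.3 to 17.5 and 11.7 to 18.9). The brightest of these, Itgam (13.4 units of reference), gave 0.03 ± 0.24 SE, while the median log2 difference of the list was 0.39. The ranges also overlapped for acinar markers (1 of 3 lower, 0 higher, 21.2 to 30.6 and 9.47 to 21.5) and red blood cell markers (2 of 4 higher, 1 lower, 2.96 to 11.3 and 10.8 to 27.9). Of 3 tested alpha, delta and PP cell markers 1 rose (Hhex) and 1 fell (Sst, -0.86 ± 0.15 SE, adjusted p = 0.00361). Sst, the brightest of them at 16.1 units of reference, had 3 db/+ values and is not in the sums. The sums over the other 2 genes, Irx2 and Hhex, were 1.08 to 1.45 in db/+ and 1.53 to 1.70 in db/db. Of the tested markers 0 had an intensity of 0 on any array, and their part in the chaperone result was not tested.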

How the data were processed

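RNA of 10 islet samples was measured on 2-colour arrays. Per the labels' protocols, Trizol RNA went through 2 rounds of amplification. The submitters' processing notes name Agilent Feature Extraction 8.5.1.1 as the software. The deposited table gives, per the file headers, a Cy3 and a Cy5 intensity and a p-value for each probe and array. The deposited series values are log10 ratios, which were checked to equal the log10 of Cy5 over Cy3 (largest difference 4.98e-07). How background was subtracted, dyes were balanced, spots were left blank and the p-value was computed is not given in the sources. With islet RNA in Cy5 on all arrays, a dye effect of equal size everywhere cancels between groups, and one that varies with signal would not.

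Log10 ratios were turned into log2 and used as deposited, with no pseudocount. The 23138 probes holding 3 or more values per group were tested in R 4.3.3 by limma 3.58.1, 2-sided and without covariates (lmFit, then eBayes), adjusted by Benjamini-Hochberg over all probes at 0.05. For the other lists, names came from a RefSeq table, build GRCm38.p6 (18956 probes by symbol, 622 by accession, 1775 by synonym, 914 kept as given, 1245 unnamed), and a gene was taken by its probe of highest mean Cy3. Named genes are all 10 chaperone genes, the 4 of smallest adjusted p per list, the 5 most alike, and Lepr. These genes and the lists were chosen with earlier results of these data known. The number of arrays limits the precision. Alternatives were quantile and loess normalization of the ratios, and Cy5 alone with its log2 intensities quantile normalized between arrays. Others were filters on dim or incomplete probes, 1 probe per gene, a trended robust variance, array weights, a replicate block, an exact permutation test and leaving out each array. The Cy3 check and a threshold of 0.01 were added after the data were seen.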

Additional observations from a re-analysis of the deposited data

Results flagged for a closer look

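Bag3 on db/+ replicate 1 lay apart from the other db/+ arrays, at a log2 ratio of -0.21 against 0.11 to 0.22 on the other 4, a gap of 0.747 of the group's whole range. It was 1 of 22 groups of 5 arrays examined in this way, and about 1 in 20 would be picked out by chance. The same array was the lowest of its group for 7 of the 11 chaperone probes. Without it the log2 difference of Bag3 was -0.19 (adjusted p = 0.138), which still did not pass.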

How the results depend on the processing

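Of the 11 chaperone probes, 0 rose under every alternative, and their log2 differences changed sign in 0 of 219 comparisons with an alternative. Many of these signs could not change. The filters, 1 probe per gene, the trended robust variance, the replicate block and the permutation test leave the log2 difference of these probes as it was. For the 9 probes whose groups did not overlap, leaving out 1 array or weighting arrays cannot reverse the sign either. The count of probes that fell was 6 in place of 10 after quantile normalization, and 9 to 10 when 1 array was left out. Quantile normalization forces 1 distribution on ratios that were wider on db/db arrays, and it raised the median standard deviation of the chaperone probes over db/+ arrays from 0.22 to 0.405, where leaving out a db/+ array gave 0.198 to 0.234. It also reduced the probes called over the whole array to 1836 higher and 1667 lower, from 3678 and 3946, and Cy5 without the reference gave 2439 higher. Leaving out 1 array gave 3237 to 3600 higher and 3408 to 3888 lower. Of the other chaperone genes, 17 fell and 3 rose after quantile normalization, 3 rose in Cy5 without the reference, and 3 to 6 rose and 26 to 31 fell without 1 array. Hsbp1 turned to -0.025 in Cy5 without the reference (adjusted p = 0.913); the cause was not tested. Where the call of Hsph1 was lost without an array, its log2 difference was -0.58 to -0.54, against -0.60 with all arrays. Fewer samples were also left, and the cause of the loss was not tested. In the exact permutation test of single probes 9 had p = 0.00794, the smallest that 5 arrays against 5 can give, Hsph1 0.0159 and Bag3 0.333.

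Same-numbered samples were not treated as pairs, since their deviations correlated at 0.031 to 0.205 and 1 of the 5 db/+ samples correlated best with its own number. With the replicate number as a block, 3549 probes were higher and 3919 lower, and the same count of 10 chaperone probes fell. The block ended the calls of Cct2 (adjusted p = 0.0915), Hspa13 (0.0637) and Dnajc7 (0.0538) and let Lonp1 (0.0457), Hspa9 (0.0158), Hspe1 (0.0347) and Hsf2 (0.039) pass, the first 3 of them mitochondrial chaperone genes that were lower. Dim probes limit what ratios can show, as 27.5% of Cy3 values were at or under 0.05 units and are rounded to 0.01.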
